A study of Homo sapiens with 12 samples.

Results

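The 10 genes of polyamine synthesis and turnover were followed through the 4 treatment arms of an RNA-seq experiment in the human prostate cancer line C4.2B, which is castration resistant and of luminal type. They were taken by gene name from the deposited count table, which holds 58735 genes, and comprised ODC1, AMD1, SRM, SMS, SAT1, SMOX, PAOX, OAZ1, OAZ2 and AZIN1. All 10 were among the 16646 genes with enough counts to test. The arms were vehicle (DMSO), the AKT inhibitor ipatasertib at 0.25 µM (AKTi), the EZH2 inhibitor tazemetostat at 1 µM (EZH2i) and both agents at those doses (combination), with 3 libraries each and 12 in all. Cells of the EZH2i and combination arms had been in tazemetostat for 6 days, those of the other arms in DMSO, and every arm was then held for 24 hours in medium with 10% charcoal-stripped FBS, which is low in steroid hormones, before polyA RNA was collected. The arms therefore differ in the length of exposure as well as in the agent. All libraries came from this 1 cell line and the replicate plates were seeded in triplicate, so p-values measure the spread between plates, which may be technical.

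Polyamines are small positively charged molecules that bind RNA, DNA and chromatin, and prostate epithelium makes and secretes them in quantity. Ornithine decarboxylase (ODC1) makes putrescine, AMD1 decarboxylates S-adenosylmethionine to the aminopropyl donor, and the synthases SRM and SMS use that donor to make spermidine and then spermine. SAT1 acetylates spermidine and spermine for export or for oxidation by PAOX, and SMOX oxidizes spermine directly. Antizymes (OAZ1, OAZ2) bind ODC1 protein and send it to the proteasome, while the antizyme inhibitor AZIN1 binds the antizymes and frees ODC1. Much of this control is on translation and protein stability, which polyA RNA does not measure.

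With the combination, the RNA of all 4 synthesis enzymes fell and that of all 3 catabolic enzymes rose. SRM was 5.41-fold lower than in DMSO and SAT1 was 7.70-fold higher. The regulators split, with OAZ1 and AZIN1 lower and OAZ2 higher. In all, 4 of the 10 genes were higher and 6 lower at an adjusted p-value under 0.05, against 38.0% higher and 35.2% lower of all tested genes, and nothing is read from the count of calls alone.

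Start-site sequences are shown for the decarboxylase and synthase genes that hold a CACGTG motif, the canonical E-box bound by MYC-MAX dimers, and for SAT1, which moved the other way. RefSeq (GRCh38.p14) windows from 250 bases before to 50 after each start were matched for 7 of the 10 genes, in 10 windows. SMOX, PAOX and AZIN1 were not matched. CACGTG, which reads the same on both strands, was found in 2 of the 10 windows, against 2548 of the 35116 windows of all genes (7.26%). One of the 2 windows belonged to SRM and the other to an alternative ODC1 start, whose window held 2 copies 28 bases apart, a feature of 233 windows overall (0.664%). Both ODC1 copies lie in intron 1 of the 12-exon MANE transcript, 286 and 320 bases from its start, and the SRM copy lies 199 bases upstream of the SRM start. All of these are on the minus strand except SAT1, and capitals mark the motif. No copy was found in the windows of AMD1, SMS, OAZ1, OAZ2 or SAT1, or in the ODC1 window at the MANE start. Of these genes without a copy, AMD1, SMS and OAZ1 fell with the combination and OAZ2 and SAT1 rose. The AMD1 windows that start at 110874534 and 110874535 are nearly the same sequence. An absence says only that these letters are not there, and a part of MYC in the changes was not tested.
ODC1 first copy, chr2:10448024-10448053: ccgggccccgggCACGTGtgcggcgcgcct
ODC1 second copy, chr2:10447990-10448019: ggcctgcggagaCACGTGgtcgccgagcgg
SRM, chr1:11060019-11060268: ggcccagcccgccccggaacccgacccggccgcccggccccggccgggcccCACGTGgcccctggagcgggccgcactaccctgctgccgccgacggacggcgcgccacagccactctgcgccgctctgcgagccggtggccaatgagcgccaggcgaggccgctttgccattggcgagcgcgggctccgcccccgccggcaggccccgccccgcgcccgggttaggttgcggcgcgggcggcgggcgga
SAT1, chrX:23782923-23783172: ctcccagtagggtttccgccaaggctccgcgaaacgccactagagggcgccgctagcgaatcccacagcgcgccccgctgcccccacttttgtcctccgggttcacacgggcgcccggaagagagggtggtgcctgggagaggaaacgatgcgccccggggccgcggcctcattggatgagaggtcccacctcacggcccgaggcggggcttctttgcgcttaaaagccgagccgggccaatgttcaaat

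Levels are given as CPM, counts relative to the library total, with totals scaled by the trimmed mean of M values (TMM), and differences as log2 fold changes with standard errors from edgeR's quasi-likelihood test, adjusted by Benjamini-Hochberg over all 16646 genes. Library totals ranged from 14133755 to 22276417 counts. Replicates of an arm differed by more than sampling noise, and all 10 luminal prostate markers examined were detected. In DMSO, the mean chi-square per gene between libraries was 6.35 and 7.50 for the pairs with C, the deepest library, against 3.99 for A and B. In EZH2i it was 6.61 and 6.26 for the pairs with A, against 4.66 for B and C. No separate check for outlying libraries was run. Their summed level rose from 3988 to 4122 CPM in DMSO to 6097 to 6287 with AKTi, 6783 to 7015 with EZH2i and 8766 to 8955 with the combination. KLK3 and FOLH1 weighed most in this sum, with means of 2636 and 1144 CPM over the 12 libraries, so it does not show that each marker rose. Summed markers of other cell types stayed low in every library, at 0.367 CPM or less for basal cells (KRT5 at 0), 1.35 or less for leukocytes (CD3E at 0) and 2.98 or less for neuroendocrine cells (CHGB at 0). Fibroblast markers, mainly COL1A1, moved with the arms, from 6.28 to 9.29 CPM in DMSO to 18.2 to 20.1 with EZH2i and 12.1 to 16.1 with the combination, and endothelial markers, mainly VWF, reached at most 2.95 CPM in DMSO, 4.34 with AKTi, 6.50 with EZH2i and 7.38 with the combination. Over the 12 libraries COL1A1 averaged 9.86 CPM, PDGFRB 1.56, COL3A1 0.920 and COL1A2 0.00845. VWF averaged 4.62 CPM and PECAM1 0.0392. All libraries came from the same cultured line, and the part of these marker shifts in the results was not tested. In bulk RNA, fewer cells of a kind and less RNA per cell cannot be told apart.

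**Figure D1:**
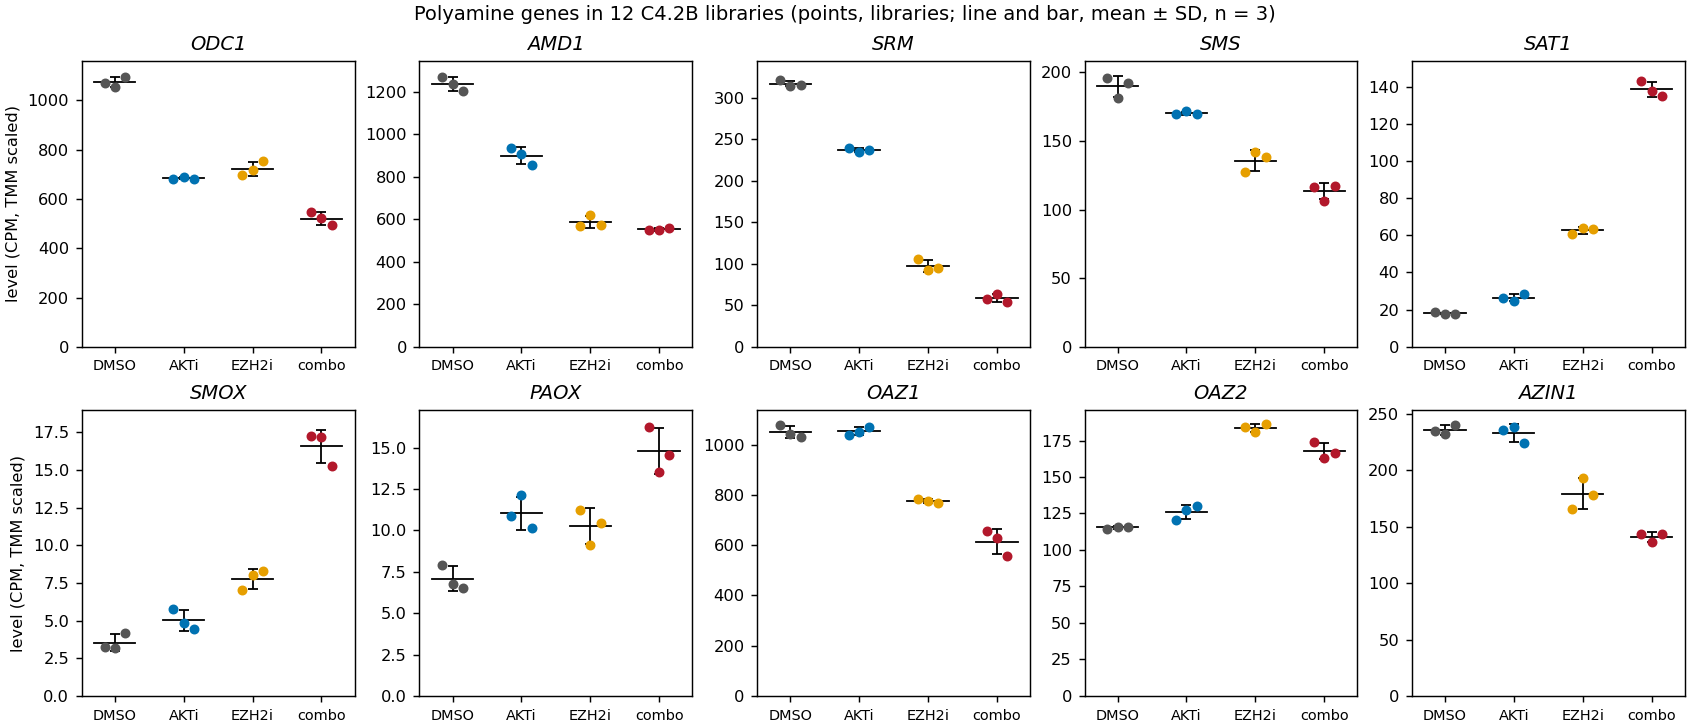
Level of each of the 10 genes (CPM, TMM scaled, linear axes from 0) in the 12 libraries, with points for libraries and lines and bars for the mean ± SD of 3 libraries per arm. The synthesis enzymes ODC1, AMD1, SRM and SMS step down and SAT1, SMOX and PAOX step up, with SAT1 at 135 to 143 CPM in the combination against 17.7 to 18.5 in DMSO.

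The 2 decarboxylases open the pathway, and both fell in every treated arm. ODC1 (ENSG00000115758, chr2:10439968-10448504, minus strand, hg38) stood at 1072, 1055 and 1096 CPM in the DMSO libraries, 681, 689.6 and 683 with AKTi, 699, 716 and 754 with EZH2i and 545, 521 and 493 with the combination. Every treated library was below every DMSO library, and the combination libraries were below those of either agent. ODC1 fell by 0.65 ± 0.051 (SE) on the log2 scale with AKTi (adjusted p = 6.0e-13), fell by 0.57 ± 0.051 with EZH2i (adjusted p = 3.0e-12) and fell by 1.05 ± 0.052 with the combination (2.07-fold, adjusted p = 6.1e-20). The AKTi and EZH2i levels did not differ past the threshold, with EZH2i 0.08 higher (95% interval -0.02 to 0.18, adjusted p = 0.21), although the difference was called under library size scaling and under upper quartile scaling.

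AMD1, the S-adenosylmethionine decarboxylase (ENSG00000123505, chr6:110874770-110895713, plus strand), followed a different order. Its levels were 1270.2, 1237 and 1203 CPM in DMSO, 935, 908 and 856 with AKTi, 569, 622 and 572 with EZH2i and 552, 549 and 560.1 with the combination. EZH2i alone brought AMD1 most of the way down, and the combination libraries lay just under the EZH2i range. AMD1 fell by 0.46 ± 0.052 with AKTi (adjusted p = 3.3e-09), fell by 1.07 ± 0.052 with EZH2i (adjusted p = 1.5e-19) and fell by 1.16 ± 0.053 with the combination (2.23-fold, adjusted p = 4.5e-21). The combination did not differ from EZH2i past the threshold (-0.09, 95% interval -0.19 to 0.02, adjusted p = 0.18), a call that was gained when EZH2i library A was left out (adjusted p = 0.033).

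The spermidine synthase SRM and the spermine synthase SMS take aminopropyl groups from the same donor, and SRM fell far more. SRM (ENSG00000116649, chr1:11054584-11060024, minus strand) stood at 321, 315 and 316 CPM in DMSO, 240.0, 235 and 238 with AKTi, 105, 92.6 and 94.5 with EZH2i and 57.9, 63.5 and 54.4 with the combination. The 4 arms did not overlap and each step down passed the test. SRM fell by 0.42 ± 0.057 with AKTi (adjusted p = 1.4e-07), fell by 1.70 ± 0.059 with EZH2i (3.26-fold, adjusted p = 6.0e-24) and fell by 2.44 ± 0.061 with the combination (5.41-fold, adjusted p = 7.2e-29). Among all 16646 genes, its log2 fold change was the 140th lowest with EZH2i and the 331st lowest with the combination.

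SMS (ENSG00000102172, chrX:21940573-21994835, plus strand) stood at 196, 181 and 192 CPM in DMSO, 169.8, 172 and 169 with AKTi, 127, 142 and 138 with EZH2i and 116, 107 and 117 with the combination. The arms kept the same order as for SRM without overlap, over a narrower range. The decrease with AKTi was small (-0.16 ± 0.056, adjusted p = 0.023). It was not called under library size or upper quartile scaling, with a filter of 1 count in total, or without DMSO library A, DMSO library C or AKTi library A, where the adjusted p reached 0.17. SMS fell by 0.48 ± 0.057 with EZH2i (adjusted p = 2.0e-09) and fell by 0.74 ± 0.057 with the combination (1.68-fold, adjusted p = 2.5e-14).

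SAT1, the spermidine/spermine acetyltransferase that starts polyamine back-conversion and export, rose most of the 10 genes with EZH2i and with the combination. SAT1 (ENSG00000130066, chrX:23783173-23786226, plus strand) stood at 18.5, 17.8 and 17.7 CPM in DMSO, 26.2, 24.8 and 28.4 with AKTi, 60.5, 63.8 and 63.6 with EZH2i and 143, 138 and 135 with the combination. No 2 arms overlapped, and the lowest combination library was above the highest EZH2i library by more than the spread within either arm. SAT1 rose by 0.56 ± 0.080 with AKTi (adjusted p = 4.5e-07), by 1.80 ± 0.073 with EZH2i (3.48-fold, adjusted p = 7.8e-22) and by 2.95 ± 0.072 with the combination (7.70-fold, adjusted p = 2.6e-29), the 582nd highest change of the 16646 genes. SAT1 and SMS lie 1.79 Mb apart on the X chromosome and moved in opposite directions.

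The oxidases were expressed at low levels and also rose. SMOX, the spermine oxidase (ENSG00000088826, chr20:4120980-4187747, plus strand), stood at 3.23, 3.17 and 4.17 CPM in DMSO, 5.79, 4.83 and 4.45 with AKTi, 7.03, 8.01 and 8.32 with EZH2i and 17.2, 17.2 and 15.3 with the combination, from 43 to 340 counts per library. The arms did not overlap, but the gap between DMSO and AKTi was narrow. SMOX rose by 1.13 ± 0.16 with EZH2i (adjusted p = 2.0e-07) and by 2.21 ± 0.16 with the combination (4.63-fold, adjusted p = 2.1e-15). The rise with AKTi (0.49 ± 0.18, adjusted p = 0.025) was not called with a filter of 1 count in total or without DMSO library A or B or AKTi library A or B, where the adjusted p reached 0.14.

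PAOX, the oxidase of acetylated polyamines (ENSG00000148832, chr10:133379234-133391694, plus strand), stood at 7.94, 6.79 and 6.52 CPM in DMSO, 10.9, 12.1 and 10.1 with AKTi, 11.2, 9.12 and 10.4 with EZH2i and 16.3, 13.5 and 14.6 with the combination. The AKTi and EZH2i libraries overlapped, all above DMSO and all below the combination. PAOX rose by 0.65 ± 0.14 with AKTi (adjusted p = 2.9e-04), by 0.54 ± 0.14 with EZH2i (adjusted p = 9.9e-04) and by 1.07 ± 0.14 with the combination (2.10-fold, adjusted p = 7.9e-09). The single agents did not differ past the threshold (-0.11, 95% interval -0.38 to 0.17, adjusted p = 0.54).

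The 2 antizymes moved apart, although both bind ODC1. OAZ1 (ENSG00000104904, chr19:2269509-2273490, plus strand), the abundant antizyme, stood at 1077, 1044 and 1030.4 CPM in DMSO, 1038, 1049 and 1071 with AKTi, 783, 777 and 767 with EZH2i and 658, 627 and 558 with the combination. The AKTi and DMSO libraries overlapped, with a difference of 0.00 (95% interval -0.11 to 0.11, adjusted p = 0.97) whose sign was negative in DESeq2. OAZ1 fell by 0.44 ± 0.054 with EZH2i (adjusted p = 5.8e-09) and fell by 0.77 ± 0.054 with the combination (1.71-fold, adjusted p = 1.8e-15).

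OAZ2 (ENSG00000180304, chr15:64687573-64703281, minus strand) was the regulator that rose, and its highest level was in EZH2i rather than in the combination. Its levels were 114, 116 and 116 CPM in DMSO, 121, 127 and 130.1 with AKTi, 184, 181 and 186 with EZH2i and 174, 163 and 166 with the combination. OAZ2 rose by 0.67 ± 0.054 with EZH2i (adjusted p = 1.8e-13) and by 0.54 ± 0.054 with the combination (1.45-fold, adjusted p = 2.9e-11). The AKTi libraries did not overlap DMSO, but the difference of 0.13 ± 0.055 missed the threshold (adjusted p = 0.061) and was called in 5 of 13 alternative analyses. The step down from EZH2i to the combination (-0.13 ± 0.053, adjusted p = 0.041) was lost in 8 of 13 alternatives, among them library size and upper quartile scaling and leaving out EZH2i library C, combination library B or combination library C (adjusted p up to 0.30).

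AZIN1, the antizyme inhibitor (ENSG00000155096, minus strand), moved with OAZ1. It stood at 235, 232 and 241 CPM in DMSO, 236, 239 and 224 with AKTi, 166, 193 and 179 with EZH2i and 144, 136 and 143 with the combination. AKTi and DMSO overlapped, and the difference of -0.02 (95% interval -0.13 to 0.09, adjusted p = 0.83) was positive under library size and upper quartile scaling. AZIN1 fell by 0.40 ± 0.056 with EZH2i (adjusted p = 1.0e-07) and fell by 0.74 ± 0.056 with the combination (1.67-fold, adjusted p = 1.9e-14). The strand setting of the counting is not given. Genes that overlap the 10 held at most 29 counts in any library and listed pseudogenes of AMD1 and SRM at most 8. How reads shared between genes were counted is not given either, so these counts cannot show whether the 10 genes lost reads.

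**Figure D2:**
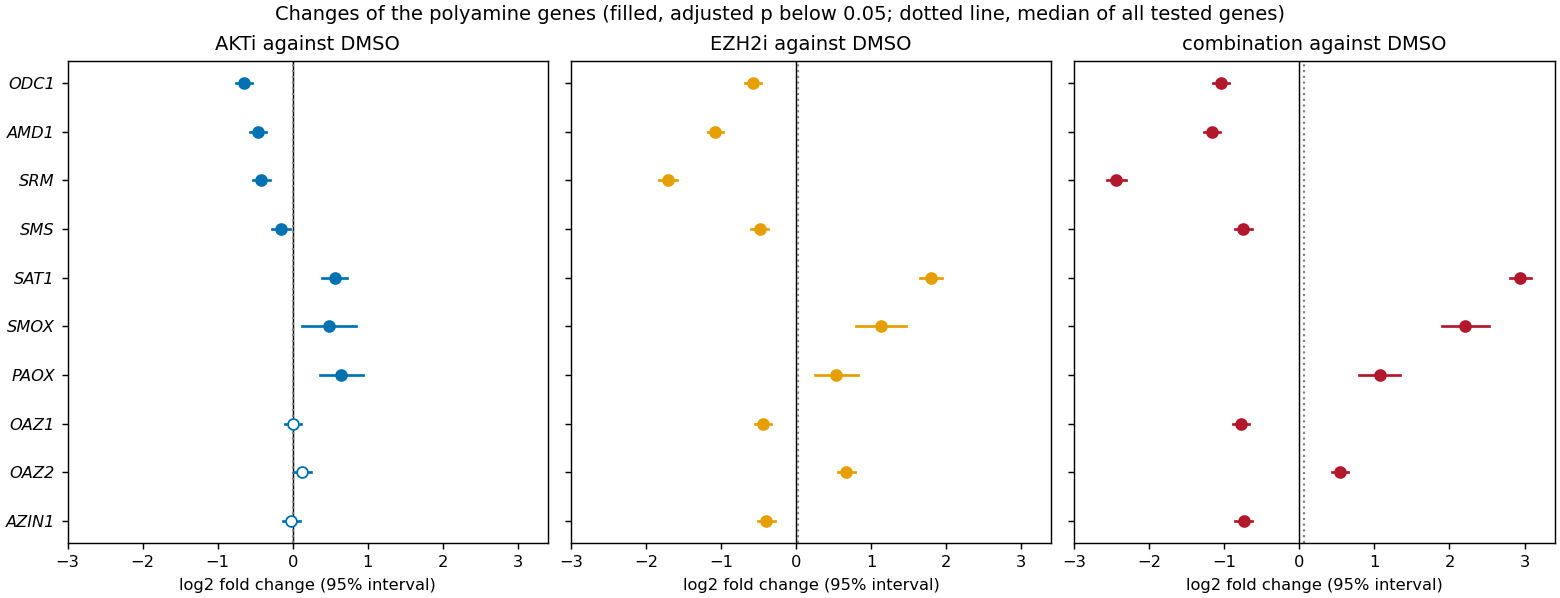
Log2 fold change of each gene against DMSO with its 95% interval, in 1 panel per treatment, filled where the adjusted p-value was under 0.05, with the median of all tested genes as a dotted line. OAZ1, OAZ2 and AZIN1 are open with AKTi and every gene is filled with EZH2i and with the combination, where SRM (-2.44) and SAT1 (2.95) lie at the ends.

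Counted over the 10 genes, AKTi alone raised 3 and lowered 4, against 20.6% higher and 21.9% lower of all tested genes, and the median change was -0.01 against 0.01 over all genes. All 7 were enzymes and the 3 regulators did not pass, but this split rests on the threshold. With AKTi, SMS (-0.16) and OAZ2 (0.13) changed by similar amounts. Of 13 alternatives, the SMS call was lost in 6 and the SMOX call in 5, and OAZ2 was called in 5. EZH2i raised 4 and lowered 6, against 32.6% and 31.5%, with a median of -0.42 against 0.03. The combination had a median of -0.74 against 0.06 over all genes, a background that was 0.26 under library size scaling. With library size scaling the share of called genes that were higher moved from 50.8% to 61.3% for EZH2i, but no call of the 10 genes changed for EZH2i or for the combination against DMSO in any alternative run.

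Per gene length the order of the genes changed between arms. In DMSO, mean CPM per kilobase of gene length (RPKM) were 362 for ODC1, 306 for OAZ1, 176 for AMD1, 167 for SRM, 87.9 for SMS, 36.7 for AZIN1, 15.05 for OAZ2, 7.20 for SAT1, 3.11 for PAOX and 1.197 for SMOX. With the combination they were 179 for OAZ1, 175 for ODC1, 78.8 for AMD1, 55.5 for SAT1, 52.5 for SMS, 30.9 for SRM, 21.9 for AZIN1, 21.9 for OAZ2, 6.50 for PAOX and 5.62 for SMOX. SAT1 moved from rank 8 to rank 4 of the 10, above SMS and SRM. The ranks of ODC1 (1 to 2), SRM (4 to 6), AZIN1 (6 to 7) and OAZ2 (7 to 8) went down, although the level of OAZ2 itself rose. SAT1 and SMS in the combination differed by little (55.5 ± 1.62 and 52.5 ± 2.71, SD, n = 3). So did OAZ1 and ODC1 (179 ± 14.9 and 175 ± 8.80) and AZIN1 and OAZ2 (21.9 ± 0.641 and 21.9 ± 0.727). Each rank rests on 1 deposited gene length per gene, and no test was run between genes.

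Ratios of 2 genes within a library do not depend on the scaling. The ratio of SAT1 to ODC1 counts, catabolic over synthetic, had a log2 mean of -5.90 ± 0.049 (SD, n = 3) in DMSO, -4.69 ± 0.10 with AKTi, -3.53 ± 0.039 with EZH2i and -1.91 ± 0.034 with the combination, which is a ratio of 0.0168 in DMSO and 0.267 in the combination. SRM over SMS went from 0.74 ± 0.048 in DMSO to 0.48 ± 0.023, -0.48 ± 0.18 and -0.95 ± 0.19 in the same order, so that the counts of SRM passed from 1.67 times to 0.516 times those of SMS. OAZ1 over OAZ2 went from 3.19 ± 0.043 to 3.06 ± 0.035, 2.08 ± 0.033 and 1.87 ± 0.11, from 9.10 times to 3.65 times. These ratios had no overlap between DMSO and any treated arm.

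The ratios of ODC1 to OAZ1 and to AZIN1 were lowest with AKTi. ODC1 over OAZ1 was 0.03 ± 0.050 in DMSO, -0.62 ± 0.025 with AKTi, -0.10 ± 0.071 with EZH2i and -0.24 ± 0.053 with the combination. ODC1 over AZIN1 was 2.19 ± 0.0031, 1.56 ± 0.045, 2.02 ± 0.11 and 1.88 ± 0.085. In both ratios the combination lay between the single agents, and OAZ1 and AZIN1 RNA was lower in the combination than with AKTi (-0.78 and -0.72, adjusted p = 3.2e-15 and 7.8e-14). SMOX over PAOX went from -1.01 ± 0.33 to 0.16 ± 0.15 with the combination, while the AKTi and EZH2i libraries overlapped DMSO (exact permutation p = 0.6 and 0.2). Of 18 exact two-sided permutation tests against DMSO, the other 16 gave p = 0.1, the smallest that 3 libraries against 3 allow, and a Benjamini-Hochberg adjusted p of 0.11.

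**Figure D3:**
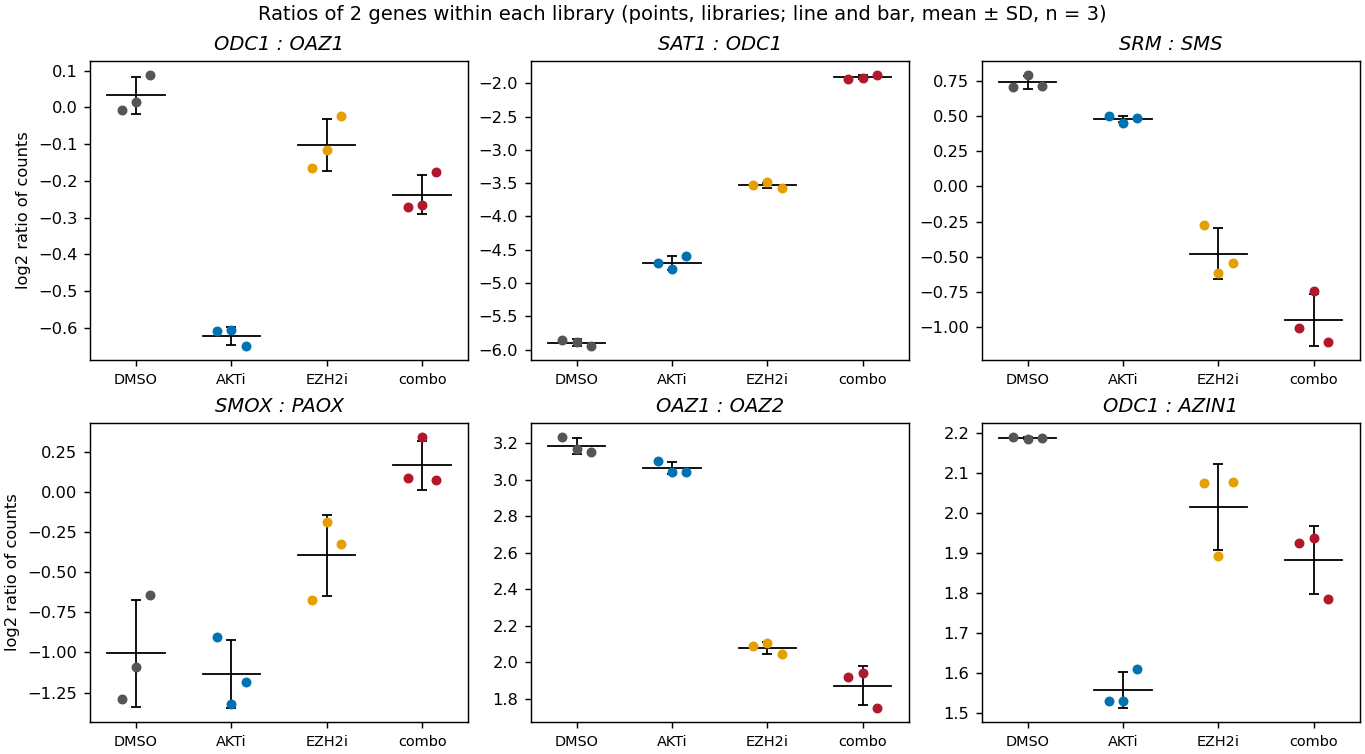
Log2 ratio of the counts of a pair of genes within each library for 6 pairs, with points for libraries and lines and bars for the mean ± SD of 3 libraries per arm. SAT1 over ODC1 climbs from -5.90 in DMSO to -1.91 in the combination, while ODC1 over OAZ1 is lowest with AKTi at -0.62.

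Whether each agent added to the other was asked by setting the combination against the single agents. Against AKTi, 4 of the 10 genes were higher and 6 lower (32.1% and 32.1% of all tested genes, median -0.49 against 0.04 over all), led by SRM (-2.02) and SAT1 (2.39). Against EZH2i, 3 were higher and 6 lower (21.1% and 25.7%, median -0.20 against -0.01), with SRM at -0.73, SAT1 at 1.15 and SMOX at 1.08, and AMD1 as the gene that did not pass. EZH2i against AKTi had 3 higher and 5 lower (25.4% and 25.1%, median -0.22 against 0.02), and the 2 genes that did not pass were ODC1 and PAOX. By library size scaling the share of called genes that were higher moved from 50% to 60.2% for the combination against AKTi and from 50.3% to 60.8% for EZH2i against AKTi, and for the combination against EZH2i from 45.1% to 52.5%. These comparisons share libraries and are not independent of each other.

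The effect of AKTi in cells with EZH2i was then compared with its effect in cells without, as the interaction term of the same fit. The term was positive for 3 genes and negative for 4, against 10.7% and 17.5% of all tested genes, with a median of -0.11 against -0.05 over all. SAT1 rose by 1.15 with AKTi in the presence of EZH2i and by 0.56 in its absence, a difference of 0.59 ± 0.10 (adjusted p = 2.3e-05), and SMOX rose by 1.08 and 0.49, a difference of 0.60 ± 0.23 (adjusted p = 0.045). SRM fell by 0.73 with EZH2i present and fell by 0.42 without (difference -0.31 ± 0.084, adjusted p = 0.0039). AMD1 went the other way, at -0.09 with EZH2i present and -0.46 without (difference 0.37 ± 0.073, adjusted p = 1.5e-04).

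The 3 regulators, none called with AKTi alone, each had a negative term. It was -0.34 ± 0.076 for OAZ1 (adjusted p = 7.0e-04), -0.33 ± 0.079 for AZIN1 (adjusted p = 0.0016) and -0.26 ± 0.076 for OAZ2 (adjusted p = 0.0095). The terms of ODC1 (0.18, adjusted p = 0.068), SMS (-0.10, 95% interval -0.27 to 0.06, adjusted p = 0.37) and PAOX (-0.11, 95% interval -0.50 to 0.27, adjusted p = 0.71) did not pass. Some of these calls changed with the analysis or with 1 library. The SMOX term was lost in 9 of 18 alternatives, which were the replicate block (adjusted p = 0.054), a filter of 1 count in total (0.11) and leaving out any 1 of DMSO C, AKTi B, AKTi C, EZH2i A, EZH2i B, combination A or combination B (adjusted p up to 0.21). The OAZ2 term was lost without AKTi B, AKTi C or EZH2i C (up to 0.082). The ODC1 term was gained with DESeq2 (adjusted p = 0.025), upper quartile scaling (0.043) and a filter of 10 counts in every library (0.024), and without DMSO B, EZH2i C or combination C (0.024 to 0.039).

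**Figure D4:**
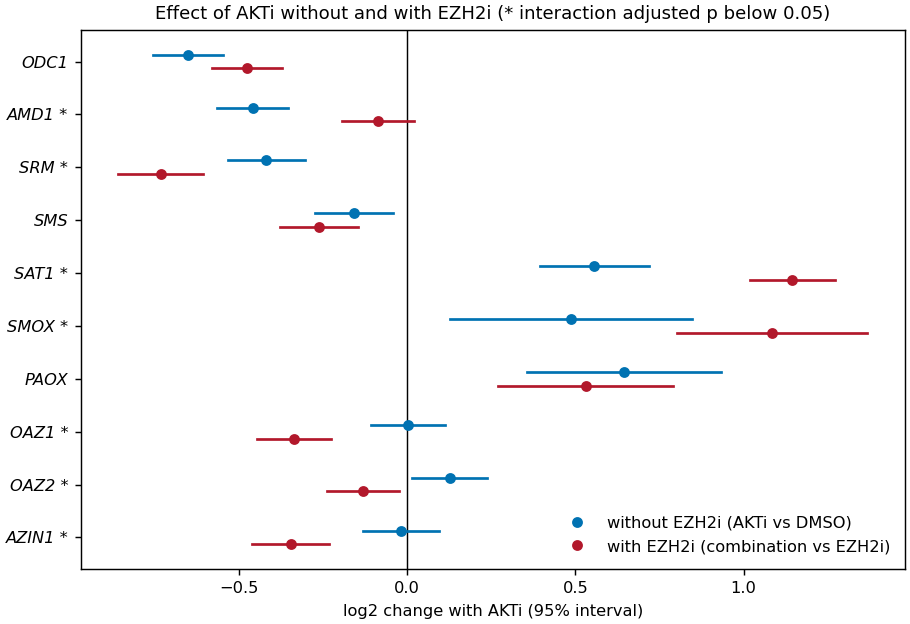
Log2 change with AKTi for each gene without EZH2i (AKTi against DMSO, blue) and with EZH2i (combination against EZH2i, red), with 95% intervals and an asterisk where the interaction term had an adjusted p-value under 0.05. SAT1 and SMOX lie farther right with EZH2i (1.15 and 1.08), AMD1 lies nearer 0 (-0.09), and OAZ1 and AZIN1 move from near 0 to -0.34 and -0.35.

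A list of 28 further genes around the pathway, in 6 groups by role, was read in the same fit. Of these, 24 were tested, and ARG1, AGMAT, SATL1 and ATP13A4 had at most 6 counts in any library. In the combination 5 were higher and 15 lower than in DMSO, with a median of -0.70 against 0.06 over all genes, of which 38.0% were higher and 35.2% lower. AKTi raised 2 and lowered 8, against 20.6% and 21.9% of all genes, with a median of -0.09 against 0.01. EZH2i raised 3 and lowered 18, against 32.6% and 31.5%, with a median of -0.68 against 0.03.

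Ornithine supply was divided. ARG2, the mitochondrial arginase that makes ornithine, rose from 23.1 ± 1.04 CPM in DMSO (SD, n = 3) to 45.9 ± 1.13 with AKTi, 55.2 ± 2.03 with EZH2i and 102 ± 6.37 with the combination (log2 fold change 2.15 ± 0.072, adjusted p = 5.3e-25), while SLC25A15, the mitochondrial ornithine carrier, fell from 34.4 ± 1.48 to 8.99 ± 0.634 CPM (3.83-fold, adjusted p = 1.4e-18). All 5 genes of methylthioadenosine salvage, which recycles the by-product of SRM and SMS to methionine, were lower in EZH2i and in the combination, against 31.5% and 35.2% of all tested genes, with medians of -1.10 and -0.99. Among them ENOPH1 fell from 147 ± 11.6 to 47.2 ± 1.65 CPM (-1.64 ± 0.066) and MRI1 from 16.6 ± 1.12 to 5.85 ± 1.21 CPM (-1.51 ± 0.14). EIF5A, the translation factor whose hypusine residue is made from spermidine, fell from 739 ± 33.4 CPM in DMSO to 623 ± 24.2, 377 ± 31.4 and 213 ± 5.73 in AKTi, EZH2i and the combination, where its log2 fold change was -1.79.

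Of the further regulators, AZIN2, a second antizyme inhibitor, went from 0.449 ± 0.111 to 3.21 ± 0.657 CPM with the combination (2.78 ± 0.38, adjusted p = 5.0e-08), from at most 12 counts per DMSO library. OAZ3, another antizyme, was 13.1 ± 0.648 CPM in DMSO and 5.29 ± 1.22 in the combination (-1.31 ± 0.16, adjusted p = 2.9e-09). Overlap with other genes was not checked for OAZ3 or the rest of the wider list. SLC18B1, a vesicular polyamine transporter, went from 12.3 ± 0.786 to 6.09 ± 0.231 CPM (-1.01). In the combination AZIN2 moved opposite to AZIN1, as OAZ2 did to OAZ1 and OAZ3.

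**Figure D5:**
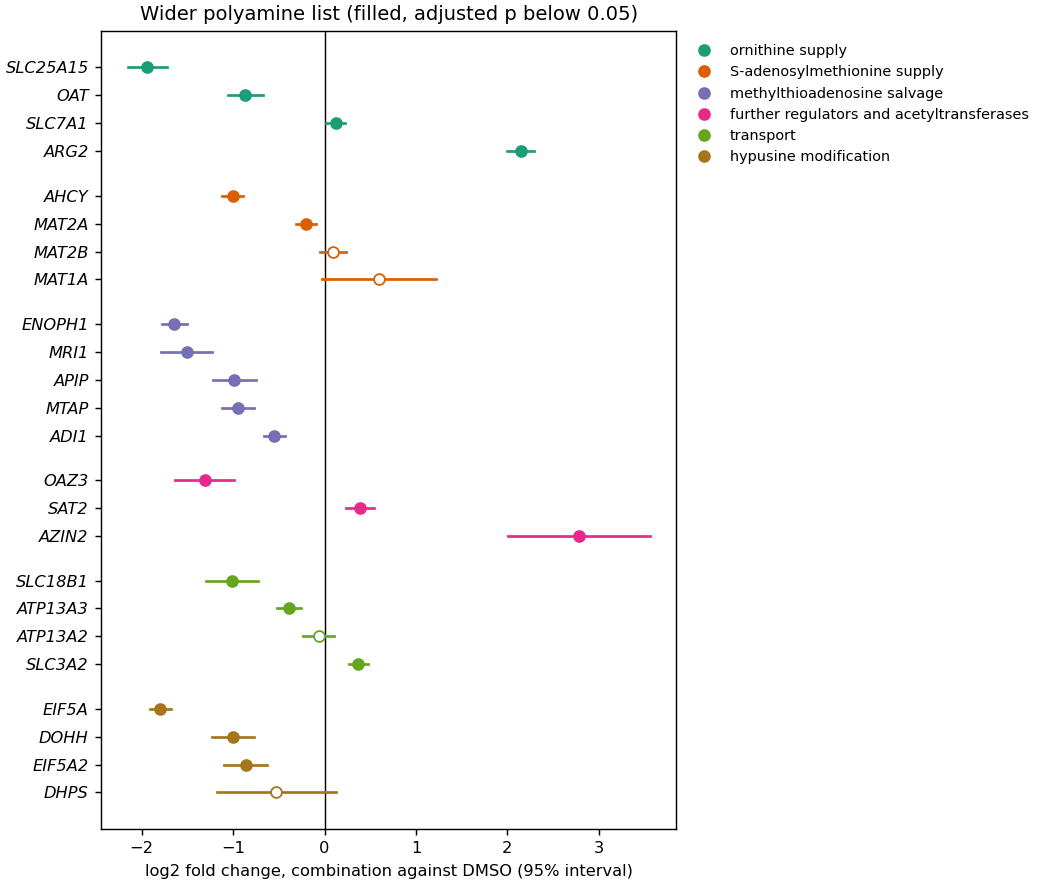
Log2 fold change, combination against DMSO, of the 24 tested genes of the wider list with 95% intervals, coloured by role and filled where the adjusted p-value was under 0.05. The 5 salvage genes all lie below 0 and AZIN2 (2.78) and ARG2 (2.15) are the highest.

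The genes whose log2 levels followed ODC1 and SAT1 most closely were named as a description, from 11366 genes expressed above 1 log2 CPM. Over the 12 libraries, which share the 4 arms, Pearson's r with ODC1 was highest for NCBP1, GGCT and RRM1 (each 0.99), and r with SAT1 was highest for LGMN, SORL1 and RNF144B (each 1.00 after rounding). LGMN, a lysosomal protease, stood at 49.4, 63.6, 112 and 177 CPM and SORL1, a sorting receptor, at 11.3, 17.6, 52.5 and 151 CPM in DMSO, AKTi, EZH2i and the combination. RRM1, the large subunit of ribonucleotide reductase, stood at 275, 153, 172 and 93.1 CPM in the same order.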

How the data were processed

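The authors aligned polyA RNA-seq reads from 12 C4.2B libraries to hg38 with STAR and counted reads per gene with HTSeq, per the labels. Versions, annotation and strand setting are not given in the sources used here, nor which of the named sequencing sites ran each library. The deposited counts are whole numbers for 58735 genes. A deposited table of DESeq2-normalized values was not used.

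Genes were kept with filterByExpr (minimum count 10, minimum total 15) and tested in R 4.3.3 with the quasi-likelihood test of edgeR 4.0.16 on all 12 libraries. Scaling was by TMM and the threshold was a Benjamini-Hochberg adjusted p-value of 0.05. The SE is the log2 fold change divided by the square root of F. CPM use TMM-scaled totals and RPKM the deposited gene length. Ratios used counts plus 0.5. The steps were tested on simulated data. There 197 of 16206 genes were given a log2 change of 1, a far smaller share than was called in the data. Of these, edgeR recovered 75.1% for the combination against DMSO and 59.9% for the interaction. These rates are over genes of all levels and are not the rates for the 10 genes in these data. A term that did not pass may therefore be a missed change. Alternatives included DESeq2 1.42.0, other scalings and filters, a replicate block and leaving out each library. Genes, lists and tests were chosen with earlier results of these data known. From the wider list, the 8 genes with the largest change in the combination were named.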

Additional observations from a re-analysis of the deposited data

Results flagged for a closer look

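For 7 of the 10 genes, the effect of AKTi with EZH2i differed from its effect without, by the interaction term of the edgeR fit over all 12 libraries (adjusted p under 0.05, log2 scale). Of all tested genes, 28.2% had such a term. The 10 genes were not matched to these in level, so nothing is read from the count alone. The SMOX call was lost in 9 of 18 alternatives, among them the replicate block, and the OAZ2 call in 3. The difference was 0.59 for SAT1, 0.60 for SMOX and 0.37 for AMD1. It was -0.31 for SRM, -0.34 for OAZ1, -0.33 for AZIN1 and -0.26 for OAZ2. For SAT1, SMOX and SRM the AKTi change had the same sign with and without EZH2i and was larger with it. For AMD1 it had the same sign and was smaller. The cells with EZH2i had 6 days of tazemetostat before AKTi, so length of exposure and agent cannot be told apart.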

How the results depend on the processing

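Of 70 values (10 genes in 7 comparisons), 59 kept direction and call in every alternative, and of 960 alternative values 907 did, 31 lost the call, 14 gained it and 8 turned direction. The 8 all concern values near 0 with AKTi alone, and the cause was not tested. The log2 change of OAZ1 (0.00) was -0.0061 by DESeq2, -0.0020 with a filter of 1 count in total, and -0.032 to 0.021 with 1 library left out. That of AZIN1 (-0.02) was 0.041 by library size and 0.040 by upper quartile scaling. Of the 10 genes, 5 to 8 were called with AKTi and 5 to 8 in the interaction across alternatives, against 7 each. What the replicate letters mark is not given. Deviations of same-letter libraries correlated at -0.06 to 0.07 and those of different letters at -0.07 to 0.06, so no pairing was detected. With 3 libraries per arm this cannot show that there was none. With a replicate block 12146 genes were called for the combination against DMSO (12186 without), and the block lost 1 call among the 10 genes, the SMOX interaction (adjusted p = 0.054). A fit without 1 library leaves an arm of 2, and depth limits SMOX and PAOX most among the 10 genes, with 43 and 92 counts in their lowest libraries. In the wider list AZIN2 had as few as 5 counts and MAT1A and DHPS 14.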

Other observations

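Among the 24 tested genes of the wider list, 4 were picked after their values were seen. These 4 were lower with EZH2i than with DMSO and higher with the combination than with EZH2i. Of all tested genes, 31.5% were lower with EZH2i than with DMSO and 21.1% were higher with the combination than with EZH2i. The share of all genes with both was not counted. The interaction terms given below follow in part from this pick and are not separate evidence. SLC7A1, the cationic amino acid carrier that imports arginine and ornithine, stood at 607 ± 33.1 CPM in DMSO (SD, n = 3), 600.3 ± 11.5 with AKTi, 254 ± 5.46 with EZH2i and 661 ± 26.1 with the combination. SLC3A2, the heavy chain of amino acid carriers that also takes part in polyamine export, stood at 330.3 ± 7.70, 274 ± 5.20, 172 ± 8.35 and 427 ± 11.0 CPM in the same order. With EZH2i, SLC7A1 fell by 1.26 ± 0.053 and SLC3A2 fell by 0.94 ± 0.052 on the log2 scale (adjusted p = 2.3e-21 and 7.2e-18). Both were higher in the combination than in EZH2i (1.38 and 1.31) and higher than in DMSO, SLC7A1 by 0.12 ± 0.052 (adjusted p = 0.034) and SLC3A2 by 0.37 ± 0.051 (adjusted p = 4.5e-08). The interaction term was 1.40 ± 0.074 for SLC7A1 (adjusted p = 2.5e-17) and 1.58 ± 0.073 for SLC3A2 (adjusted p = 5.5e-19). MAT2A and MAT2B, the catalytic and regulatory subunits of S-adenosylmethionine synthetase, had smaller changes of the same kind. With EZH2i, MAT2A fell by 0.56 and MAT2B fell by 0.31 (adjusted p = 1.6e-11 and 2.5e-04), and in the combination they were 0.36 and 0.40 above EZH2i (adjusted p = 7.3e-07 and 1.1e-05). Against DMSO, the combination was lower for MAT2A (-0.20, adjusted p = 9.2e-04) and did not pass for MAT2B (0.09, adjusted p = 0.24). Their interaction terms were 0.66 ± 0.076 and 0.44 ± 0.10 (adjusted p = 1.1e-08 and 9.4e-04).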
